A study of Caenorhabditis elegans with 2 samples.

Results

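The 8 genes cct-1 to cct-8 of Caenorhabditis elegans encode the subunits of CCT, the cytosolic chaperonin, and they were chosen by name among 19973 nuclear protein-coding genes. All 8 were found in the annotation. The data are peak lists from ChIP-seq of RNA polymerase II, made with an antibody against AMA-1, its large catalytic subunit. Both biological replicates came from whole wild-type N2 animals of mixed sex at the L4 larval stage, with no mutation, transgene or treatment. There was 1 group of 2 samples and no other condition, with no conditions to compare, and no test between groups was possible. The values of both replicates stand beside the pooled ones where the results turn on them. The age of the animals is labelled unknown, and the animals came from the CGC strain collection.

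CCT, also called TRiC, is built from a pair of stacked rings, each holding one copy of every subunit. It closes around newly made proteins and folds them with energy from ATP. Actin and tubulin are its best known clients, and the prefoldin complex hands unfolded actin and tubulin to it. In C. elegans many messages are trans-spliced, meaning that a short leader RNA replaces their original 5′ end. For such genes the annotated start is a splice acceptor, and transcription begins somewhere upstream of it.

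Each list gives a summit and a signal value per peak, both as the authors' caller wrote them. The replicate lists and the pooled list hold 30000 peaks each, and the set that passed the irreproducible discovery rate filter (IDR set) holds 2082, which are the 2082 strongest pooled peaks. The replicate and pooled lists were deposited as peaks and background together, so they include weak peaks. The −log10 q-values of the 65 pooled summits counted for the CCT genes ran from 0.60 to 3.88, the highest in that list, and 12 were below 1. Signal was compared only within a list, and rank 1 is the strongest peak. The lists carry no read numbers, and counting errors could not be given. In whole animals, a signal from few cells and a weak signal in all cells cannot be told apart.

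The genes lie on chromosomes II (cct-1, cct-2, cct-3 and cct-4), III (cct-5 and cct-6), V (cct-7) and IV (cct-8). Their lengths fall into compact and long genes. cct-1 (2159 bp), cct-2 (2075 bp), cct-4 (2045 bp) and cct-6 (2158 bp) are short, and cct-7 (3260 bp) is intermediate. cct-8 (6813 bp), cct-5 (8927 bp) and cct-3 (10000 bp) are longer through their introns. The nearest upstream protein-coding gene was on the other strand for 8 of 8, against 44.7% of all protein-coding genes. Downstream, 5 of 8 were followed within 300 bp by a gene on the same strand, against 12.6% of all. These are mrpl-50 after cct-2 (gap 25 bp), csn-4 after cct-8 (94 bp), F54A3.2 after cct-3 (102 bp), atf-7 after cct-5 (142 bp) and ddx-23 after cct-6 (260 bp).

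The annotated starts, read from the RefSeq copy of assembly WBcel235 (ce11), are shown because distances from them are used throughout. Each line gives the 20 bases before the start and the first 10 of the gene, on the gene's strand of ce11, with an AG directly before the start in capitals. The coordinates are chrII:8185423-8185452 (cct-1, plus strand), chrII:8927721-8927750 (cct-2, plus), chrII:2233520-2233549 (cct-3, plus), chrII:8283647-8283676 (cct-4, plus), chrIII:4508105-4508134 (cct-5, minus), chrIII:5855678-5855707 (cct-6, minus), chrV:1872226-1872255 (cct-7, plus) and chrIV:1093911-1093940 (cct-8, minus).
cct-1: ttaatacggttgtgtttcAGgtaatggcat
cct-2: tttcatgtttcgtatttcAGcaagatgctt
cct-3: aaattcccccaaatttccAGctaaaaatga
cct-4: acatcataatttaatttgcagatgccacca
cct-5: taacatgctaatattttcAGtgtctgtcaa
cct-6: agttgaattcttgttttcAGgtagtatgtc
cct-7: aattaataattcaaattcAGagcaagatga
cct-8: taaaatctaataatttgcAGgtaaatcatg

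AG, the end of a splice acceptor, stood directly before 7 of 8 annotated starts, against 27.6% of all protein-coding genes. The exception, cct-4, carries the same letters but its outermost start is annotated 1 base earlier. A second annotated transcript of cct-4 starts 1 base later, right after its AG. These letters describe the annotation and do not show where transcription began.

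A polymerase summit lay in or within 500 bp of every CCT gene, and for 5 of them such a summit entered the IDR set. Only cct-2 and cct-5 held an IDR summit inside the gene. The IDR summits outside the genes also lay near a neighbouring gene and cannot be given to the CCT gene alone. A summit in the gene or 500 bp either side was present at 8 of 8 genes in the pooled list, against 43.3% of all protein-coding genes. It was likewise present at 8 of 8 in replicate 1, against 42.8%, and at 8 of 8 in replicate 2, against 43.6%. In the IDR set cct-2, cct-5, cct-6, cct-7 and cct-8 had such a summit, 5 of 8 against 10.3%. Among the 8899 genes within the members' range of lengths, the share was 11.2%. cct-2, cct-5 and cct-8 held 2 or more IDR summits, 3 of 8 against 2.50%.

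The remaining 3 genes fell outside the IDR set, with cct-3 and cct-4 nearer its limit in pooled rank than cct-1. The last rank in that set is 2082, and the best pooled ranks were 2139 for cct-3, 2213 for cct-4 and 2668 for cct-1. The member nearest the limit on the inside was cct-7, whose best summit ranked 1237. These values describe the limit and carry no test.

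Summits gathered past the ends of the CCT genes. Of 65 pooled summits in the windows, 49 lay inside the genes, 7 upstream and 9 downstream, but the strongest of a gene was mostly downstream. In replicate 1, 34 of 47 summits lay inside the genes and 8 downstream, and in replicate 2, 58 of 71 lay inside and 8 downstream. For 7 of 8 genes the strongest pooled summit of the whole window lay 1 to 250 bp past the annotated end, against 23.9% of the 8653 genes with a pooled summit. In replicate 2 the strongest summit lay there for 6 of 8 genes, against 21.2% of all with a summit. In replicate 1 it did so for 4 of 8 (cct-2, cct-3, cct-6 and cct-7), against 23.0%. This window was chosen after the summits were seen. In the pooled list cct-8 was the exception, with its strongest summit upstream of the start.

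A pooled summit 1 to 250 bp past the end was present at 8 of 8 CCT genes, against 19.9% of all protein-coding genes. In replicate 2 it was present at 8 of 8, against 18.7%, and in replicate 1 at 7 of 8, against 18.2%. In the IDR set it was present at 5 of 8, against 3.82%. All 8 pooled end summits had the highest −log10 q-value of the list, 3.88. Many peaks share that value, among them a cct-6 summit at rank 3674, so it does not set the end summits apart. In replicate 1 the end summit of cct-4 had 1.51, and the others present had the highest value of that list, 4.05. In replicate 2 that of cct-8 had 2.8, and the others had the highest value of that list, 4.13. The window is the same length for every gene.

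The distance past the end, which this window limits to 250 bp, varied between the genes. In the pooled list it was 72 bp for cct-2, 86 bp for cct-7, 106 bp for cct-6, 109 bp for cct-4, 123 bp for cct-1, 124 bp for cct-5, 126 bp for cct-8 and 201 bp for cct-3. The median was 116 bp, against 136 bp (quartiles 88 and 184) over all protein-coding genes with a pooled summit in that window. A pooled summit 100 to 149 bp past the end was present at 5 of 8 CCT genes, against 5.55% of all protein-coding genes.

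**Figure D1:**
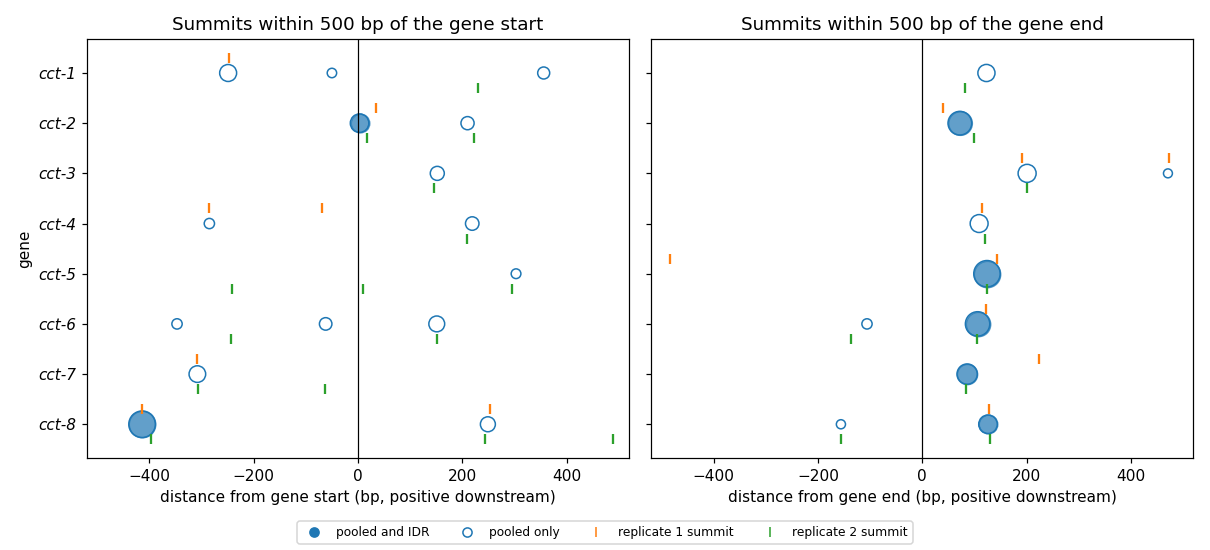
Summits of the 8 CCT genes within 500 bp of the gene start (left) and gene end (right), by distance in bp along the gene. Circles are pooled summits with area proportional to signal, filled where the summit is in the IDR set; ticks above and below are summits of replicates 1 and 2. A circle stands 72 to 201 bp past the end of every gene, while positions around the start are scattered.

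cct-5, the epsilon subunit, had the strongest end summit of the family in the pooled list and in replicate 2, while cct-8 had it in replicate 1. Its signal was 99.4 in the pooled list (rank 300), 39.2 in replicate 1 (rank 1157) and 62.4 in replicate 2 (rank 160). The pooled summit, at chrIII:4499064, lay in no gene. It stood 19 bp before the start of atf-7, a transcription factor gene, and 26 bp before that of the small gene C07G2.5. The replicate 1 summit lay in the 5′ UTR of atf-7. cct-6, the zeta subunit, followed with a signal of 84.9 (rank 462) in the pooled list, 26.5 (rank 2962) in replicate 1 and 54.3 (rank 217) in replicate 2. Its summit also lay in no gene, 155 bp before the start of ddx-23, a DEAD-box helicase.

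cct-2, the beta subunit, had an end summit of signal 79.9 (rank 534) in the pooled list, 31.3 (rank 2031) in replicate 1 and 53.4 (rank 224) in replicate 2. That summit lay in a coding exon of mrpl-50, a mitochondrial ribosomal protein gene, 46 bp into it. At cct-8, the theta subunit, the end summit had a signal of 49.1 (rank 1871) in the pooled list, 40.6 (rank 1059) in replicate 1 and 10.8 (rank 9083) in replicate 2. It lay in a coding exon of csn-4, a COP9 signalosome subunit, 31 bp from the start of that gene. cct-3, the gamma subunit, had one of signal 46.4 (rank 2139) in the pooled list, 26.0 (rank 3070) in replicate 1 and 22 (rank 2366) in replicate 2. That summit lay 98 bp into F54A3.2, in a coding exon.

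The end of cct-4 is the one case with no close gene beyond it. Past cct-4, the delta subunit, the next protein-coding gene was nlp-55 on the other strand, whose end lay 9117 bp away. Its end summit nonetheless had a signal of 45.7 (rank 2213) in the pooled list, 11.5 (rank 13485) in replicate 1 and 29.2 (rank 1161) in replicate 2. Among the 6462 genes with no protein-coding gene within 1000 bp past the end, 11.5% had a pooled summit 1 to 250 bp past it. At cct-2, cct-3, cct-5, cct-6 and cct-8, polymerase at the end of the gene and at the start of the next one cannot be told apart from a summit.

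A pair of members face a gene on the other strand. The end of cct-7, the eta subunit, overlaps zig-11 by 28 bp, and the summit lay in the 3′ UTR of zig-11. Its signal was 58.5 (rank 1237) in the pooled list, 33.3 (rank 1767) in replicate 1 and 30.6 (rank 1025) in replicate 2. The replicates placed it 141 bp apart, at 224 bp past the end in replicate 1 and 83 bp in replicate 2. The end of cct-1, the alpha subunit, overlaps T05C12.8 by 117 bp, and the summit lay in a coding exon of that gene. It had a signal of 41.9 (rank 2668) in the pooled list and 25.9 (rank 1589) in replicate 2, and replicate 1 had none within 250 bp.

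The sequences past the end are shown for the 3 pooled summits that lie in no gene and for a pair that run into the next gene. Each begins at the first base after the annotated end and runs 30 bases past the pooled summit, on the gene's strand of ce11, with the 11 bases around the summit in capitals. The coordinates are chrII:8285712-8285850 (cct-4, plus), chrIII:4499034-4499187 (cct-5, minus), chrIII:5853394-5853529 (cct-6, minus), chrII:8929816-8929917 (cct-2, plus) and chrIV:1086952-1087107 (cct-8, minus).
cct-4: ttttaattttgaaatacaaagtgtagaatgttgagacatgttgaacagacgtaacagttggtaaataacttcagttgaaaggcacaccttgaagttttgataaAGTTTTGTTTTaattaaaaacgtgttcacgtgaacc
cct-5: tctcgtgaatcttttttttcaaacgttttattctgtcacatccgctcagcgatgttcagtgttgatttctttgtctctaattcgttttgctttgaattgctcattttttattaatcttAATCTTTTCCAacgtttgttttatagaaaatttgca
cct-6: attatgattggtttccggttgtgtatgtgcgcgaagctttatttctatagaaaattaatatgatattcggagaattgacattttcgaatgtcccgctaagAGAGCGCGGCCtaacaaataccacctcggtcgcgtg
cct-2: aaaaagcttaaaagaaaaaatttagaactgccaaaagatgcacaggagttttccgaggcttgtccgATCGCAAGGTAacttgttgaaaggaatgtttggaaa
cct-8: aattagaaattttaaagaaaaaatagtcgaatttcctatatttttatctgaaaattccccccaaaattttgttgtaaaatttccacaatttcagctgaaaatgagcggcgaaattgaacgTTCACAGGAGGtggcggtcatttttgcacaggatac

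The letters at these sites differ between the genes. T made up 49.4% of the cct-5 stretch, 33.8% of that of cct-4, 31.6% of that of cct-6, 31.4% of that of cct-8 and 23.5% of that of cct-2. Over the first 150 bases past the end, the 8 genes had a median of 32.0% T, against a median of 33.3% (quartiles 29.3% and 38.0%) over all protein-coding genes. The CCT median therefore lay inside the quartiles of all genes.

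Around the starts the strongest summits were spread more widely, in a window wider than that past the ends. A pooled summit within 500 bp of the start was present at 8 of 8 genes, against 30.7% of all protein-coding genes. An IDR summit was present there at 2 of 8, cct-2 and cct-8, against 5.57%. The strongest pooled summit near the start lay upstream for cct-8 (414 bp), cct-7 (308 bp) and cct-1 (249 bp). It lay 3 bp past the start of cct-2, and 151 bp past it for cct-6, 152 bp for cct-3, 219 bp for cct-4 and 303 bp for cct-5.

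The upstream summit of cct-8 was the strongest of all summits counted for the family in the pooled list and in replicate 1. In replicate 2 the end summits of cct-5, cct-6 and cct-2 were stronger. Its signal was 100.4 in the pooled list (rank 288), 54.2 in replicate 1 (rank 493) and 44.1 in replicate 2 (rank 375). At chrIV:1094334 it lay in no gene, between the non-coding RNA gene Y55F3AR.4, whose end was 125 bp away, and the start of Y55F3AR.2 on the other strand, 207 bp away. Polymerase of Y55F3AR.2, Y55F3AR.4 and cct-8 cannot be told apart at this summit. Within cct-8 a second summit stood 249 bp past the start with a signal of 32.0 (rank 4655) in the pooled list. It was 10.4 (rank 15392) in replicate 1 and 15.5 (rank 4894) in replicate 2.

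The region of the cct-8 upstream summit is shown for its strength. It covers 75 bases on either side of the pooled summit, chrIV:1094259-1094409 on the minus strand of ce11, with the 11 bases around the summit in capitals, and it was 51.7% G and C.
cct-8: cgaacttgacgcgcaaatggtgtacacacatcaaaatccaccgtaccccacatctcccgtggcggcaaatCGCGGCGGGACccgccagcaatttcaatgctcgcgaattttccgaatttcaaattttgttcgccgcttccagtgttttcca

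In the rank of its best pooled summit, cct-8 was level with its neighbour Y55F3AR.2, which shares that summit. The next protein-coding genes above were cyc-1, encoding cytochrome c1, and C54G4.9, which share the summit at rank 286. Below came tctn-1 and cyc-2.1, a cytochrome c gene, which share the summit at rank 289. The likeness is one of rank in 1 list only.

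The start summit of cct-2 was the only IDR summit within 100 bp of the annotated start of a CCT gene. Its signal was 49 (rank 1880) in the pooled list, 16.0 (rank 8118) in replicate 1 and 25.9 (rank 1580) in replicate 2. The nearest upstream protein-coding gene, B0457.2, lay 1189 bp away from the start of cct-2. At cct-7 the summit 308 bp upstream had a signal of 39.4 (rank 3042) in the pooled list, 20.5 (rank 5143) in replicate 1 and 20 (rank 2961) in replicate 2. It lay 131 bp from the start of T10B5.4 on the other strand and 42 bp from that of the non-coding RNA gene T10B5.13.

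The other 4 genes had summits just inside the start, in the pooled list and replicate 2. In the pooled list these were weaker than the strongest start summits of cct-1, cct-2, cct-7 and cct-8. In replicate 2, those of cct-3, cct-4 and cct-6 were stronger than those of cct-1 and cct-7. That of cct-5 was stronger than that of cct-1. At cct-6 the summit had a signal of 35.8 (rank 3674) in the pooled list and 23.6 (rank 2001) in replicate 2, at the same base in both. At cct-3 it had 28 (rank 5991) in the pooled list and 23.2 (rank 2089) in replicate 2. At cct-4 the pooled signal was 26.0 (rank 6810), and replicate 2 had 20.3 (rank 2830). At cct-5 the pooled signal was 13.5 (rank 18411), and replicate 2 had 15.2 (rank 5068). All 4 ranked higher in replicate 2 than in the pooled list, and replicate 1 had no summit within 500 bp of 3 of these starts. Its 2 summits near the start of cct-4 lay upstream, at 285 bp with a signal of 10.5 (rank 15270) and at 69 bp with 7.3 (rank 22917).

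The replicates placed some summits apart. Replicate 2 had a summit within 500 bp of 8 of 8 starts, against 31.9% of all protein-coding genes, and replicate 1 of 5 of 8, against 28.0%. Their strongest such summits lay within 100 bp of each other for 3 genes, cct-2, cct-7 and cct-8. Past the ends, replicate 1 had a summit at 7 of 8 genes and replicate 2 at 8 of 8. Their strongest summits there lay within 100 bp of each other for 6 genes. The window past the end spans 250 bp, and that around the start 500 bp on either side. A narrower window leaves less room for summits to lie apart, so the counts of 3 and 6 cannot be set against each other. At cct-3, cct-5 and cct-6 replicate 1 had no summit within 500 bp of the start. The difference between starts and ends was not tested.

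cct-1 showed opposite edges in the 2 replicates. Replicate 1 had its strongest summit of the gene 248 bp upstream of the start, with a signal of 39.0 (rank 1169). That position is 171 bp from the start of mig-5, a Dishevelled gene on the other strand, measured from the pooled summit. Replicate 2 listed no summit upstream of cct-1, and its strongest stood 81 bp past the end. The pooled list holds both, with signals of 41.1 (rank 2779) upstream and 41.9 (rank 2668) past the end.

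**Figure D2:**
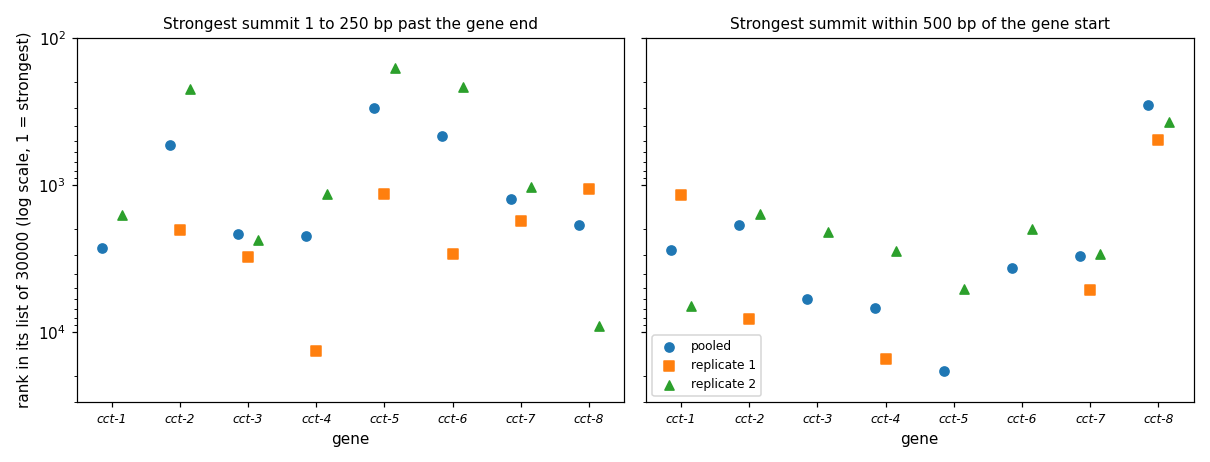
Rank of the strongest summit past the gene end (left) and near the gene start (right) of each CCT gene, in the pooled list and both replicate lists of 30000 peaks (log scale, strongest at the top). A missing symbol means no summit in that window. Replicate 2 ranks the end summits of cct-2 to cct-7 above replicate 1, replicate 1 ranks that of cct-8 above replicate 2, and cct-1 has none in replicate 1.

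CCT genes stood higher in replicate 2 than in replicate 1 at most members. The best summit of the window ranked higher in replicate 2 for 7 of 8 genes, against 54.1% of the 7009 genes with a summit in both lists. The best rank in replicate 1 divided by that in replicate 2 was 13.65 for cct-6, 10.01 for cct-4, 9.07 for cct-2, 3.92 for cct-5, 1.75 for cct-3, 1.72 for cct-7, 1.31 for cct-8 and 0.74 for cct-1. Its median was 2.62, against 1.12 (quartiles 0.55 and 2.43) over those genes. The family's median best rank was 1899 in replicate 1 and 700 in replicate 2, and 885.5 in the pooled list. Over protein-coding genes with a summit these medians were 6479 in replicate 1, 5502 in replicate 2 and 5643 in the pooled list. For cct-2, cct-4 and cct-6, which had the largest ratios, the best summit in replicate 2 was the one past the end. The same held for cct-1, which had the lowest ratio, and for cct-5 and cct-7. In replicate 1 the strongest summit of cct-4 lay inside the gene, 906 bp before its end, with a signal of 12.8 (rank 11627).

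**Figure D3:**
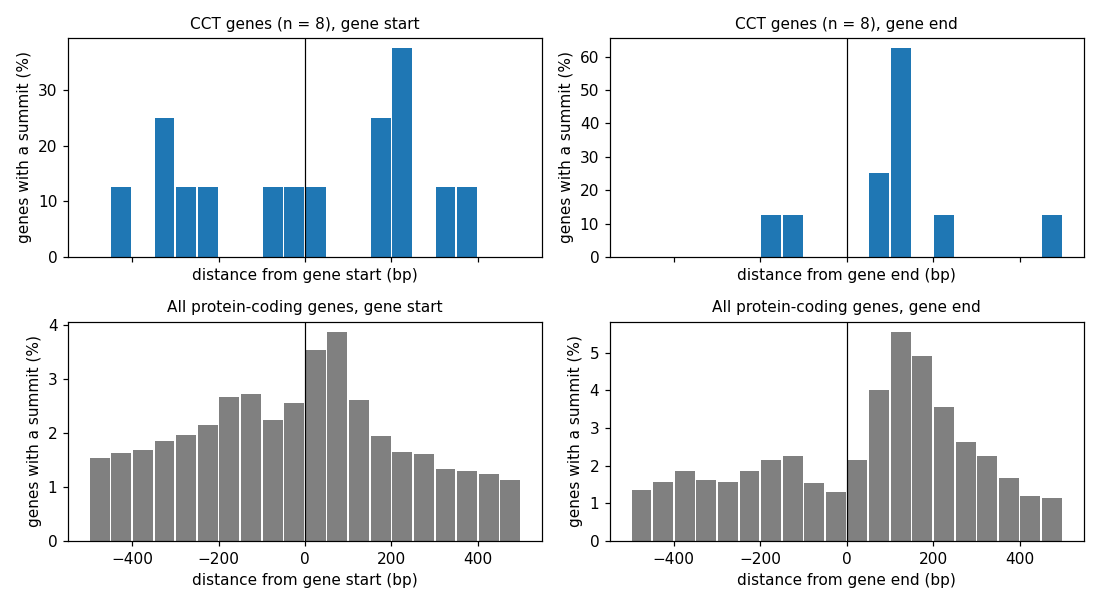
Share of genes with a pooled summit in each 50 bp bin around the gene start (left) and gene end (right), for the 8 CCT genes (top) and all 19973 protein-coding genes (bottom), whose vertical scales differ. The bin from 100 to 149 bp past the end held a summit for 5 of 8 CCT genes (62.5%) and for 5.55% of all genes, the highest bin of both panels.

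Inside the genes, only cct-2 and cct-5 held IDR summits. cct-5 has one intron of 6134 bp, near its start, which held 12 pooled summits and 2 IDR summits. The stronger lay 3650 bp from the start, with a signal of 84.7 (rank 465) in the pooled list. A summit within 30 bp of it had 49.6 (rank 628) in replicate 1, where it was the strongest of the gene, and 31.2 (rank 967) in replicate 2. The other lay 4517 bp from the start, with a signal of 53.9 (rank 1489) in the pooled list. Near it stood summits of 33.1 (rank 1782) in replicate 1 and 23.8 (rank 1947) in replicate 2. No other annotated gene apart from piRNA genes covers either position. A summit in an intron does not show whether the polymerase there was transcribing cct-5.

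Summits inside the other long genes, cct-3 and cct-8, did not enter the IDR set. cct-3 had 11 pooled summits in its window, among which those inside the gene reached at most 29.9 (rank 5323), in the 3′ UTR, a site that had 24.9 (rank 1751) in replicate 2, where it was the strongest of the gene. cct-8 had 12, and those inside the gene reached at most 32.0. cct-1 and cct-6 had 6 each, cct-7 had 5, and cct-2 and cct-4 had 4 each. Per kb of window this was 1.00 (cct-3) to 1.90 (cct-1 and cct-6) pooled summits. Of the 49 pooled summits inside the 8 genes, 30 lay in introns, 15 in coding exons, 3 in 3′ UTRs and 1 in a 5′ UTR.

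**Figure D4:**
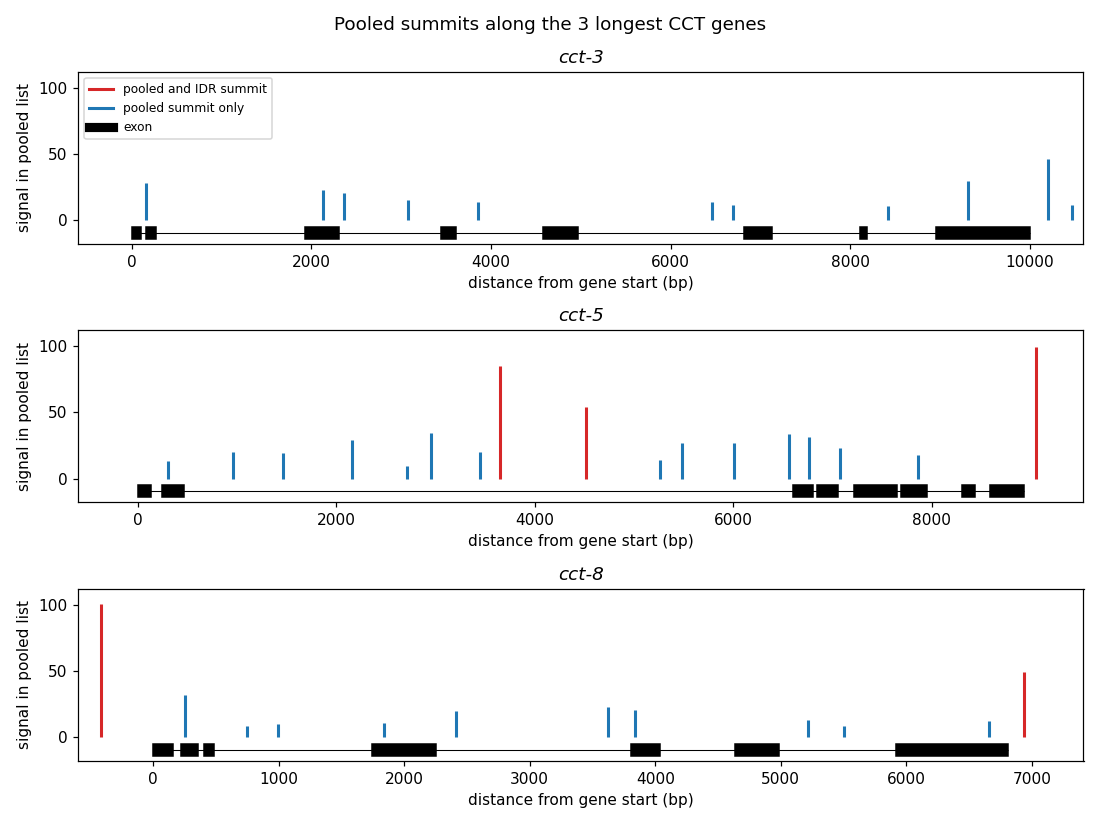
Pooled summits along cct-3, cct-5 and cct-8, drawn as lines at their distance in bp from the gene start with their height as the signal in the pooled list, red where they are in the IDR set. Black boxes are annotated exons. The tallest lines stand past the gene end and in the long intron of cct-5, and upstream of cct-8.

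Stretches around the annotated starts, called promoters here, were searched for pairs of inverted GAA units. Where a start is a splice acceptor, such a stretch need not hold the site where transcription begins. A full heat shock element, the sequence bound by the heat shock factor HSF-1, is a longer run of such alternating units, so a pair is only a piece of one. HSF-1 is known to control cytosolic chaperone genes in C. elegans. The window was 250 bases before to 50 after the start, on both strands. GAANNTTC was present in 5 of 8 (cct-1, cct-3, cct-5, cct-7 and cct-8), against 18.5% of 19973 promoters. TTCNNGAA was present in 5 of 8 (cct-1, cct-4, cct-5, cct-6 and cct-7), against 18.9%. Either was present in 7 of 8, all but cct-2, against 32.5%, a count added after the matches were seen. None of the matches overlap each other. The match of cct-8 lay in the non-coding RNA gene Y55F3AR.4, and the TTCGAGAA match of cct-7 in the non-coding RNA gene T10B5.13. The nearest upstream protein-coding gene was on the other strand for 8 of 8, so a match cannot be given to the CCT gene alone.

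The matches are shown with 15 bases on either side, on the gene's strand of ce11, with the matched letters in capitals. In the order of the lines, they begin 192 and 139 bases before the start of cct-1 (chrII:8185236-8185273 and chrII:8185289-8185326, plus), 22 before that of cct-3 (chrII:2233503-2233540, plus), 166 before that of cct-4 (chrII:8283486-8283523, plus), 230 and 150 before that of cct-5 (chrIII:4508322-4508359 and chrIII:4508242-4508279, minus), 239 before that of cct-6 (chrIII:5855904-5855941, minus), 214 and 159 before that of cct-7 (chrV:1872017-1872054 and chrV:1872072-1872109, plus) and 189 before that of cct-8 (chrIV:1094087-1094124, minus).
cct-1: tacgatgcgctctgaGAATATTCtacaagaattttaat
cct-1: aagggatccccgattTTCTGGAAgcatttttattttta
cct-3: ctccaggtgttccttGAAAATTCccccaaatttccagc
cct-4: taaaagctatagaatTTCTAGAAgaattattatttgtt
cct-5: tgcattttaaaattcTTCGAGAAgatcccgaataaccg
cct-5: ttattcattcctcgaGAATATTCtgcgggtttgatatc
cct-6: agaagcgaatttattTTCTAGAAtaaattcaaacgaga
cct-7: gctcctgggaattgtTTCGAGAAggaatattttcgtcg
cct-7: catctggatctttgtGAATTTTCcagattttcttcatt
cct-8: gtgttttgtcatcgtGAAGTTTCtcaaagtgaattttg

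The matches lay at varied distances from the starts, mostly farther than 100 bases. Some had the same letters throughout: TTCTAGAA in cct-4 and cct-6, TTCGAGAA in cct-5 and cct-7, and GAATATTC in cct-1 and cct-5. Only the letters marked N in each motif were free to differ, and the share of all genes with these exact letters is not given. TATAAA was present in 2 of 8 (cct-2 and cct-8), against 37.9% of promoters. TTTCCCGC and TTTGGCGC, letters of E2F sites, and GGGCGG were in 0 of 8 windows, against 1.57%, 0.941% and 7.83%. A match describes letters only, and no binding of HSF-1 was measured here. No relation to the summits was tested.

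Prefoldin genes, other chaperone genes and client genes were described by the same rule, an IDR summit in the gene or 500 bp either side. Of all protein-coding genes, 10.3% met it. Prefoldin, which delivers clients to CCT, had 1 of 6 genes (pfd-1, pooled rank 681, with the summit 101 bp past the end), and its median best pooled rank was 3004. All 6 had a pooled summit, against 43.3% of protein-coding genes, and 5 of 6 had one 1 to 250 bp past the end, against 19.9%. The mitochondrial chaperonin genes, hsp-60 (rank 1094) and Y22D7AL.10 (rank 182), had 2 of 2. Their strongest summits lay 66 bp and 230 bp past the end.

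Other cytosolic chaperones and their partners had 10 of 12, with a median best pooled rank of 682.5. They were led by hsp-1, a constitutive HSP70 (rank 41, 37 bp past the end), and hsp-90 (rank 323, inside the gene). The others were bag-1 (499), dnj-13 (517), hsp-110 (536), sti-1 (647), dnj-12 (718), dnj-19 (1058), chn-1 (1078) and daf-41 (1903). Of the 12, 9 had a pooled summit 1 to 250 bp past the end, against 19.9% of protein-coding genes. The best summit ranked higher in replicate 2 than in replicate 1 for 11 of 12, all but unc-45, against 54.1% of genes with a summit in both. The same held for 4 of 5 prefoldin genes with a summit in both replicates, 2 of 2 mitochondrial chaperonin genes, 4 of 7 tubulins and 1 of 5 actins.

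Client genes were more mixed. Actins had 3 of 5 (act-4 at rank 57, act-2 at 482 and act-1 at 1469), and tubulins 5 of 16 (tbb-2 at 165, tba-2 at 245, tba-1 at 581, tbb-1 at 1236 and tbg-1 at 1600). Of the 16 tubulin genes, 9 had any pooled summit, against 43.3% of protein-coding genes. Nearly identical actin and tubulin copies can share reads, and the handling of such reads is not stated in the files or labels. The best ranks of CCT, from 288 to 2668, overlapped those of every one of these lists.

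**Figure D5:**
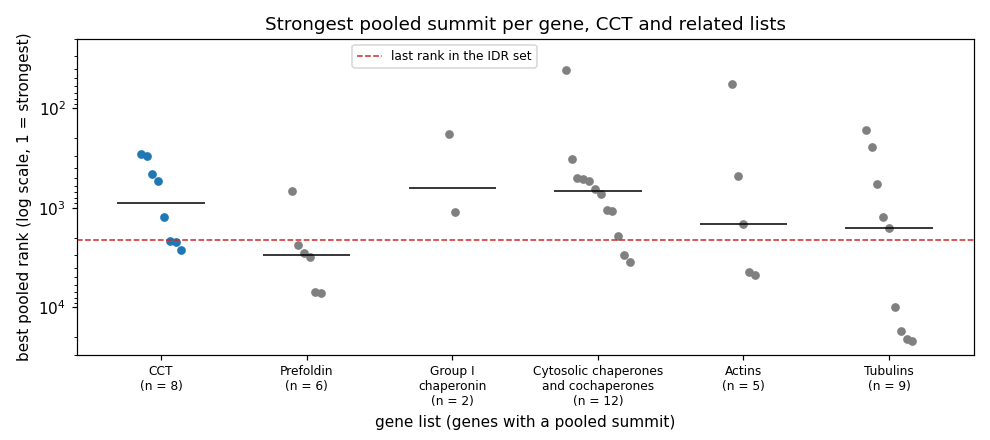
Rank of the strongest pooled summit of each gene (log scale, strongest at the top) for CCT and 5 related gene lists, with genes that have a pooled summit as points and the list's median over those genes as a line. The dashed line is rank 2082, the last of the IDR set. Of the CCT genes, 5 of 8 stand above it and the other 3 below.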

How the data were processed

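ChIP-seq peak lists of 2 biological replicates, numbered as in the labels, were analysed with a pooled list and an IDR set on build ce11. Per the notes deposited with the samples, a replicate's list was called on its own alignments against a control, the pooled list on both, and the IDR set drew on all 3 lists. No label or file used here names the aligner, caller, filters or IDR threshold, and read depth is unknown. The deposited score per peak is the caller's signal value, used to rank peaks only within 1 list. A −log10 q-value per peak, also deposited, reached 1 highest value at many peaks and ranked none. The deposited summit offset was added to the peak start, and positions are 1-based.

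Gene models came from Ensembl release 115 (WBcel235, the assembly of ce11) and sequence from the RefSeq copy of that assembly, and no peak passed a chromosome end. A gene start or end is the outermost annotated one. Gene neighbours include genes that overlap a member's edge by under 500 bp. Counting was tested on simulated data with summits planted at known genes, using Python 3.11.15, pandas 2.3.3 and numpy 2.4.6.

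Members and lists were chosen with earlier results of these data known, so members are described beside the share of all protein-coding genes, with no test. The genes named are the members, genes that overlap or neighbour their summits, list genes with an IDR summit, and those next in rank to the best member. The window past the end, its strongest-summit count, the length range, gene neighbours, AG at starts and the combined motif were added after the data were seen. Protein sequences were not used here.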

Additional observations from a re-analysis of the deposited data

How the results depend on the processing

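The count of 5 of 8 CCT genes with an IDR summit stayed at 5 with windows of 250 and 1000 bp, with peak intervals and within 500 bp of the end alone, and was 4 in the stronger part of the IDR set and for summits outside other protein-coding genes. It was 2 for the gene alone, and 2 within 500 bp of the start alone, against 5.57% of all protein-coding genes. It was 8 when 2 times as many of the strongest pooled peaks were taken. With the 2082 strongest peaks of a single replicate, it was 5 without replicate 2 and 8 without replicate 1. The 5 without replicate 2 included cct-1 and not cct-6, so they were not the 5 of the IDR set. For the other settings of this count the share of all genes is not given. The values show only how the members' count moved. The count of 8 of 8 with a pooled summit 1 to 250 bp past the end ran from 7 to 8 with either replicate left out, was 7 within 150 bp and 8 within 500 bp, was 8 in that wider pooled set, and was 5 in the IDR set, which holds fewer peaks. For the windows of 150 and 500 bp and the wider pooled set, the share of all genes is not given. The count of 7 of 8 whose strongest summit lay past the end ran from 4 without replicate 2 to 6 without replicate 1. The family's median best pooled rank of 885.5 became 1554 with a window of 250 bp, and ran from 700 without replicate 1 to 1899 without replicate 2. The best rank of cct-8 became 1871 with a window of 250 bp, which leaves out its upstream summit, and that of cct-4 was 11627 without replicate 2. No motif count changed when only the 250 bases before the start were searched. Causes of the differences between replicates were not tested. No paired analysis was possible because there is 1 group and no contrast. Depth is unknown, so no limit of detection is given.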
